A study of Mus musculus with 14 samples.

Results

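CD115+ cells of mouse blood were compared between mice that lacked apolipoprotein E and the lymphotoxin beta receptor and mice that lacked apolipoprotein E alone. The comparison took the 6 CD115+ arrays of the 14 arrays in the series, 3 of each genotype, chosen by their titles and genotype labels, and covered 22180 genes. The double-deficient group (apoE-/-LTbR-/-) had replicates 1, 2 and 3, and the ApoE-deficient group (apoE-/-), which were littermate controls, had replicates 1, 3 and 4. All mice of both groups therefore lacked ApoE, all were male and 12 weeks old, and all had eaten a Western type diet for 4 weeks. ApoE-deficient replicates 3 and 4 were each RNA from a pool of 2 littermate samples, and no double-deficient replicate was a pool. Blood was spun through Ficoll and the cells were selected with CD115 MicroBeads, 1 ng of RNA was amplified per sample, and the cDNA was labelled with biotin for arrays. The other 8 arrays were of aorta with its perivascular fat from mice of the same genotypes. The labels give no deletion site for the receptor gene and no cell type restriction of either deficiency, and they do not say whether blood and aorta came from the same animals.

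CD115 is the receptor of colony-stimulating factor 1, encoded by Csf1r, and in blood it marks monocytes. Mouse blood monocytes form a Ly6C-high class, which enters inflamed tissue and becomes macrophages, and a Ly6C-low class, which patrols the vessel wall and depends on the nuclear receptor Nr4a1. Ltbr encodes the lymphotoxin beta receptor, a tumour necrosis factor receptor family member. It binds lymphotoxin, which lymphocytes make, and the cytokine LIGHT, and it signals through the non-canonical and canonical NF-kB pathways. Type I interferons act through their receptor to switch on antiviral genes, many of which carry an interferon-stimulated response element in their promoter. Lack of ApoE leaves cholesterol-rich remnant particles in plasma and leads to atherosclerosis, in which monocytes enter the artery wall.

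The deposited values were log2 values already centred on each probe set's median over the 6 CD115+ arrays, so 0 is the middle of the 6 arrays and a value says how far an array lay above or below that middle. Apart from a coarse lower bound for some genes, described below, no level of a gene can be read from them. Beyond that bound no gene can be compared with another in level. All differences below are double-deficient minus ApoE-deficient on the log2 scale. In lists of values the double-deficient replicates 1, 2 and 3 stand first and the ApoE-deficient replicates 1, 3 and 4 follow.

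Double-deficient replicate 1 did not resemble double-deficient replicates 2 and 3. Over all genes the values of double-deficient replicate 1 correlated at -0.34 with replicate 2 and at -0.50 with replicate 3, while replicates 2 and 3 correlated with each other at 0.41. ApoE-deficient replicate 1 correlated at -0.21 with replicate 3 and at -0.22 with replicate 4, and ApoE-deficient replicates 3 and 4 correlated at 0.10. Genes are not independent replicates, and centring over 6 arrays lowers such correlations by itself. The first principal component held 52% of the variance and put double-deficient replicate 1 at -0.51, replicates 2 and 3 at 0.57 and 0.49, and the ApoE-deficient replicates at 0.041, -0.33 and -0.26. The array weight fitted by limma was 0.418 for double-deficient replicate 1 and 1.07 to 1.33 for the other 5. List medians are therefore given with all 6 arrays and without double-deficient replicate 1.

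The markers of the labelled cell type were looked at first. A coarse bound on level came from the rounding of the values, which shows for some genes that the original log2 signal was 8 or more. Of the 16 genes of the CSF1 receptor axis and the 15 and 16 genes of the Ly6C-high and Ly6C-low monocyte lists, 21 of 47 had this bound, among them Csf1r, Ccr2, Ly6c2, Cx3cr1, Nr4a1 and Lyz2. Over all genes 8.92% had it, and among olfactory receptors, which blood cells are not known for, 1.45% (16 of 1105). The defining markers Alas2 and Hbb-bs were not analysed here.

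Vessel wall and fat genes also had the bound in the CD115+ arrays, and they moved together from array to array. Lists of smooth muscle, white and brown adipocyte, fibroblast and endothelial genes were added after these values were seen. Of their 62 measured genes, 25 (40.3%) had a level of 8 or more, including Myh11 and Acta2 of smooth muscle, Adipoq of adipocytes, Ucp1 of brown fat and Col3a1 of matrix, although none of the 12 endothelial genes did. Of the 19 genes of brain, testis and liver, 2 had it (10.5%). The mean over the 62 genes was 0.23, -0.26 and -0.26 in the double-deficient replicates and -0.022, 0.13 and 0.061 in the ApoE-deficient ones. Double-deficient replicate 1 was thus the highest array and double-deficient replicates 2 and 3 the lowest, with all ApoE-deficient arrays between them. Myh11, the smooth muscle myosin heavy chain, stood at 0.30, -0.25 and -0.34 against -0.039, 0.20 and 0.039, and Adipoq, which encodes adiponectin, at 0.17, -0.18 and -0.15 against -0.051, 0.11 and 0.051. CD115 beads are not meant to select such cells, and how this signal came into the arrays was not tested.

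Markers of lymphocytes, neutrophils and platelets varied far more between arrays. The mean of the 14 B cell markers was -0.25, 1.75 and 0.87 against 0.24, -0.78 and -0.75. Both ApoE-deficient pools were lowest and double-deficient replicates 2 and 3 highest, with both replicates numbered 1 between them. Cd79a, a subunit of the B cell receptor, stood at -0.42, 2.07 and 1.19 against 0.42, -1.12 and -1.19. The mean of the 16 neutrophil markers was -0.32, 1.15 and -0.16 against 0.73, 0.030 and -0.53, and that of the 14 platelet markers was -0.48, 1.43 and -0.33 against 0.25, 0.17 and -0.21. Double-deficient replicate 2 was the highest array for both lists, and S100a8, a neutrophil protein, stood there at 1.30 and Ppbp, a platelet chemokine, at 2.08. In RNA from many cells, fewer cells of a type and less RNA per cell cannot be told apart.

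**Figure D1:**
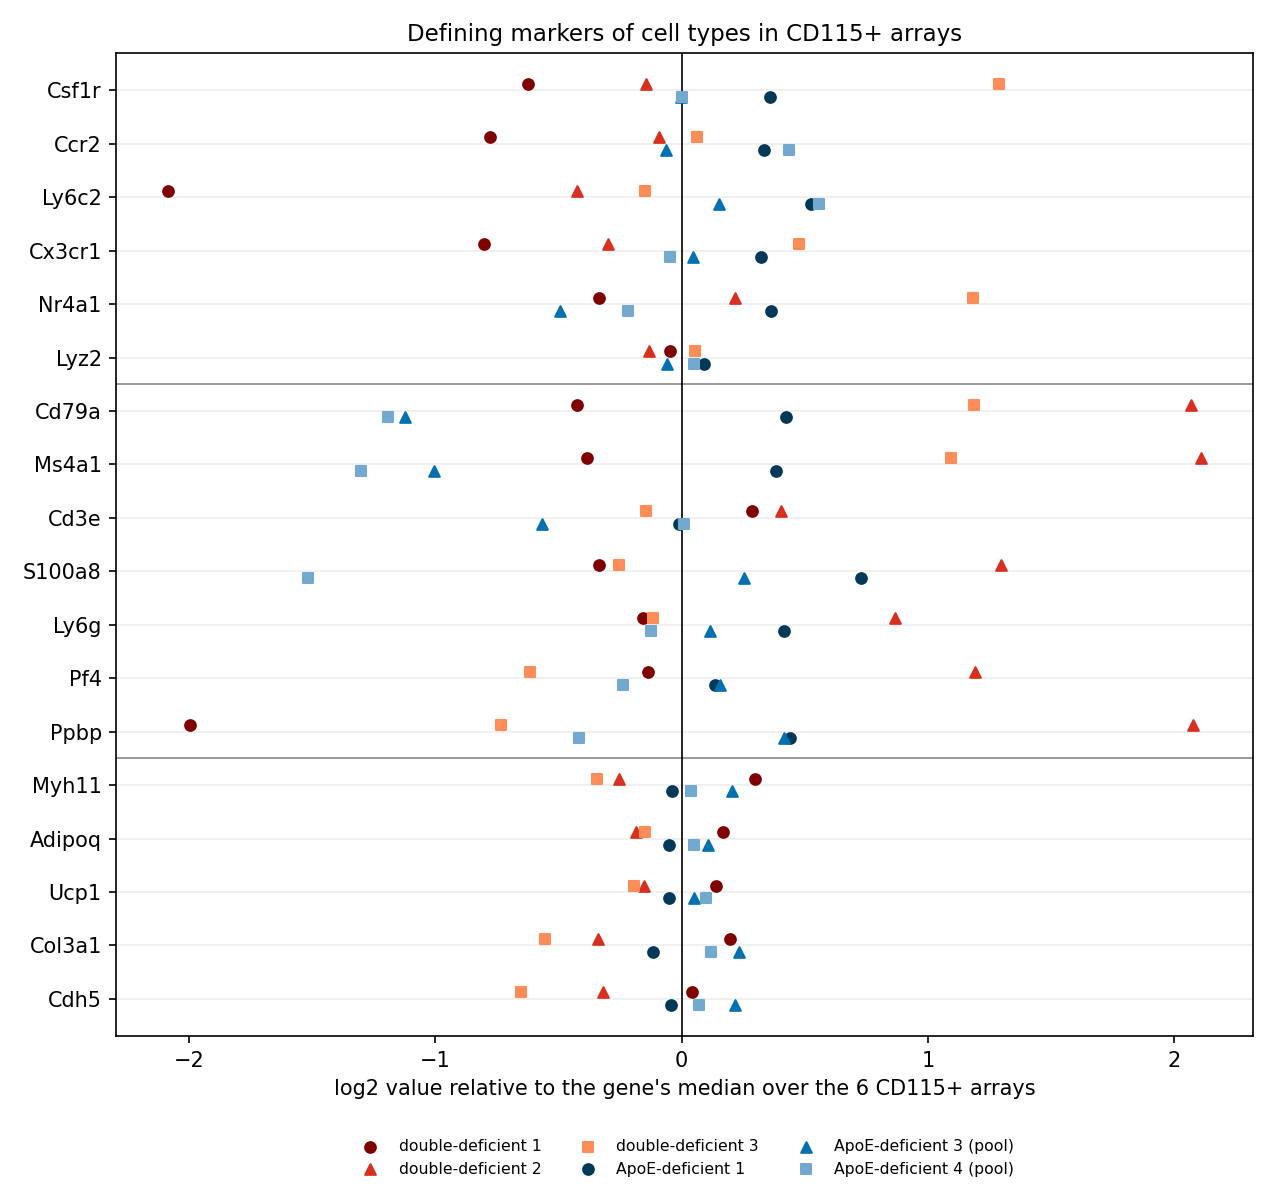
Centred log2 values (x axis, 0 is the gene's median over the 6 arrays) of defining markers, 1 point per array, with double-deficient arrays in reds and ApoE-deficient arrays in blues; lines separate monocyte genes, genes of other blood cells, and vessel wall and fat genes. Ly6c2 was lowest in double-deficient replicate 1 (-2.08), Cd79a highest in double-deficient replicate 2 (2.07), and Myh11, Adipoq, Ucp1 and Col3a1 lay below all other arrays in double-deficient replicates 2 and 3.

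No gene differed between the genotypes after adjustment. Limma with Benjamini-Hochberg adjustment called 0 of 22180 genes at 0.05 (0.0% called), and the smallest adjusted p was 0.833. At an unadjusted p under 0.05 there were 974 genes (4.39%), fewer than the 1109 that the threshold alone would give: 517 lower in double-deficient cells (2.33%) and 457 higher (2.06%). The 3 values of one genotype lay wholly below the 3 of the other in 1159 genes that were lower (5.23%) and wholly above in 872 that were higher (3.93%). A negative difference was found in 55.3% of all genes, and the median difference was -0.0109. These shares are the background for the counts of members below. Without double-deficient replicate 1, again 0 genes were called, the smallest adjusted p was 0.0622, and 3584 genes (16.2%) passed an unadjusted p of 0.05, of which 1972 were lower and 1612 higher. With only 2 arrays left against 3, groups did not overlap in 4419 genes that were lower (19.9%), and 57.3% of all genes had a negative difference. Counts of lower genes apart in that fit are read beside this larger share.

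Ltbr itself was lower in the double-deficient arrays. Its values were -0.069, -0.62 and -0.44 in double-deficient replicates 1, 2 and 3 and 0.55, 0.069 and 0.40 in ApoE-deficient replicates 1, 3 and 4. All 3 double-deficient values lay below all ApoE-deficient values, but double-deficient replicate 1 and ApoE-deficient replicate 3 were close. The difference was -0.72 (SE 0.18), with a limma adjusted p of 0.976, and the two-sided exact permutation test gave p = 0.1, the smallest that 3 against 3 allow. Without double-deficient replicate 1 the difference was -0.87. In aorta it was -1.64. The files do not say where the Ltbr probe set lies relative to the deleted part, so this checks the labels only in part.

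Of the other members of the lymphotoxin axis, the ligand subunits pointed the other way. Ltb, which anchors lymphotoxin on the lymphocyte surface, stood at -0.40, 1.80 and 1.19 against 0.40, -0.89 and -0.52, a difference of 1.20 (SE 0.63). Its groups overlapped, and its order over arrays was that of the B cell markers. Lta, the secreted subunit, differed by 0.22 (SE 0.13), and Tnfrsf14, another receptor for LIGHT, by -0.14 (SE 0.082). Over the 8 genes of the list the median was -0.083, or 0.074 without double-deficient replicate 1, and 5 were negative. Among 92 measured neighbours of Ltbr on its chromosome, the closest 50 protein-coding genes on each side, 52 were negative and the median was -0.017. Of these 92, 6 were lower and 4 higher without overlap, beside 5.23% and 3.93% over all genes.

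The genes with the smallest p-values among those lower in double-deficient cells were led by Oas1g, a synthetase of the interferon-induced antiviral system that makes 2'-5' oligoadenylates. Its values were -1.08, -1.02 and -0.56 against 0.83, 0.95 and 0.56, a difference of -1.67 (SE 0.17) or 3.18-fold, with a limma adjusted p of 0.833. Every double-deficient array lay more than 1 log2 unit below every ApoE-deficient array. Tor3a, an interferon-inducible relative of torsin, stood at -0.19, -0.17 and -0.19 against 0.17, 0.29 and 0.24, with a difference of -0.41 (SE 0.050). Its values were nearly the same within each genotype, double-deficient replicate 1 included. Usp18, a protease that removes ISG15 and damps interferon receptor signalling, stood at -0.27, -0.35 and -0.20 against 0.38, 0.28 and 0.20, and the difference was -0.56 (SE 0.071). Again the groups did not overlap and the 3 double-deficient arrays stood close together. Ifi205, a member of the interferon-inducible DNA-binding Ifi200 family, stood at -0.52, -1.20 and -1.10 against 0.52, 1.15 and 0.53, a difference of -1.67 (SE 0.25). Znfx1, an interferon-stimulated helicase that senses viral RNA, differed by -0.29 (SE 0.048).

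The other 7 of these 12 genes had less in common. They were Zfp933 (-0.49 (SE 0.062)), a zinc finger gene, Hcar1 (-0.43 (SE 0.058)), the lactate receptor of adipocytes, Yipf6 (-0.39 (SE 0.060)), a Golgi membrane protein, Emc8 (-0.31 (SE 0.050)), a subunit of the membrane protein insertion complex, Pigu (-0.38 (SE 0.063)), part of the enzyme that attaches GPI anchors, Arhgap42 (-0.57 (SE 0.11)), a GTPase-activating protein, and Dlg5 (-0.30 (SE 0.056)), a cell polarity scaffold. All 12 kept a negative difference when any 1 array was left out, as must hold for groups that do not overlap. The limma adjusted p of the 11 after Oas1g was 0.976, so none passed the threshold.

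Among genes higher in double-deficient cells the 12 of smallest p were mostly small differences. Aff3, a nuclear protein of the lymphoid lineage, was the exception, at 0.32, 1.30 and 1.11 against -0.51, -0.64 and -0.32, a difference of 1.40 (SE 0.26). Double-deficient replicates 2 and 3 were far above the rest, as for the B cell markers, and double-deficient replicate 1 also lay above every ApoE-deficient array. Wdr43, a ribosome biogenesis factor, stood at 0.17, 0.21 and 0.12 against -0.12, -0.18 and -0.20, a difference of 0.33 (SE 0.051), with little spread within either genotype. Gstp2, a glutathione transferase, differed by 0.45 (SE 0.079), Prickle3 by 0.47 (SE 0.086), and Ada, the adenosine deaminase, by 0.31 (SE 0.059). Usp53, Taf1a and Aebp2 differed by 0.42, 0.37 and 0.37. Ccndbp1, Ndc80, Ppp1r13b and Mtf2 differed by between 0.24 and 0.33. None of these 12 is on the interferon lists, and all had a limma adjusted p of 0.976.

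**Figure D2:**
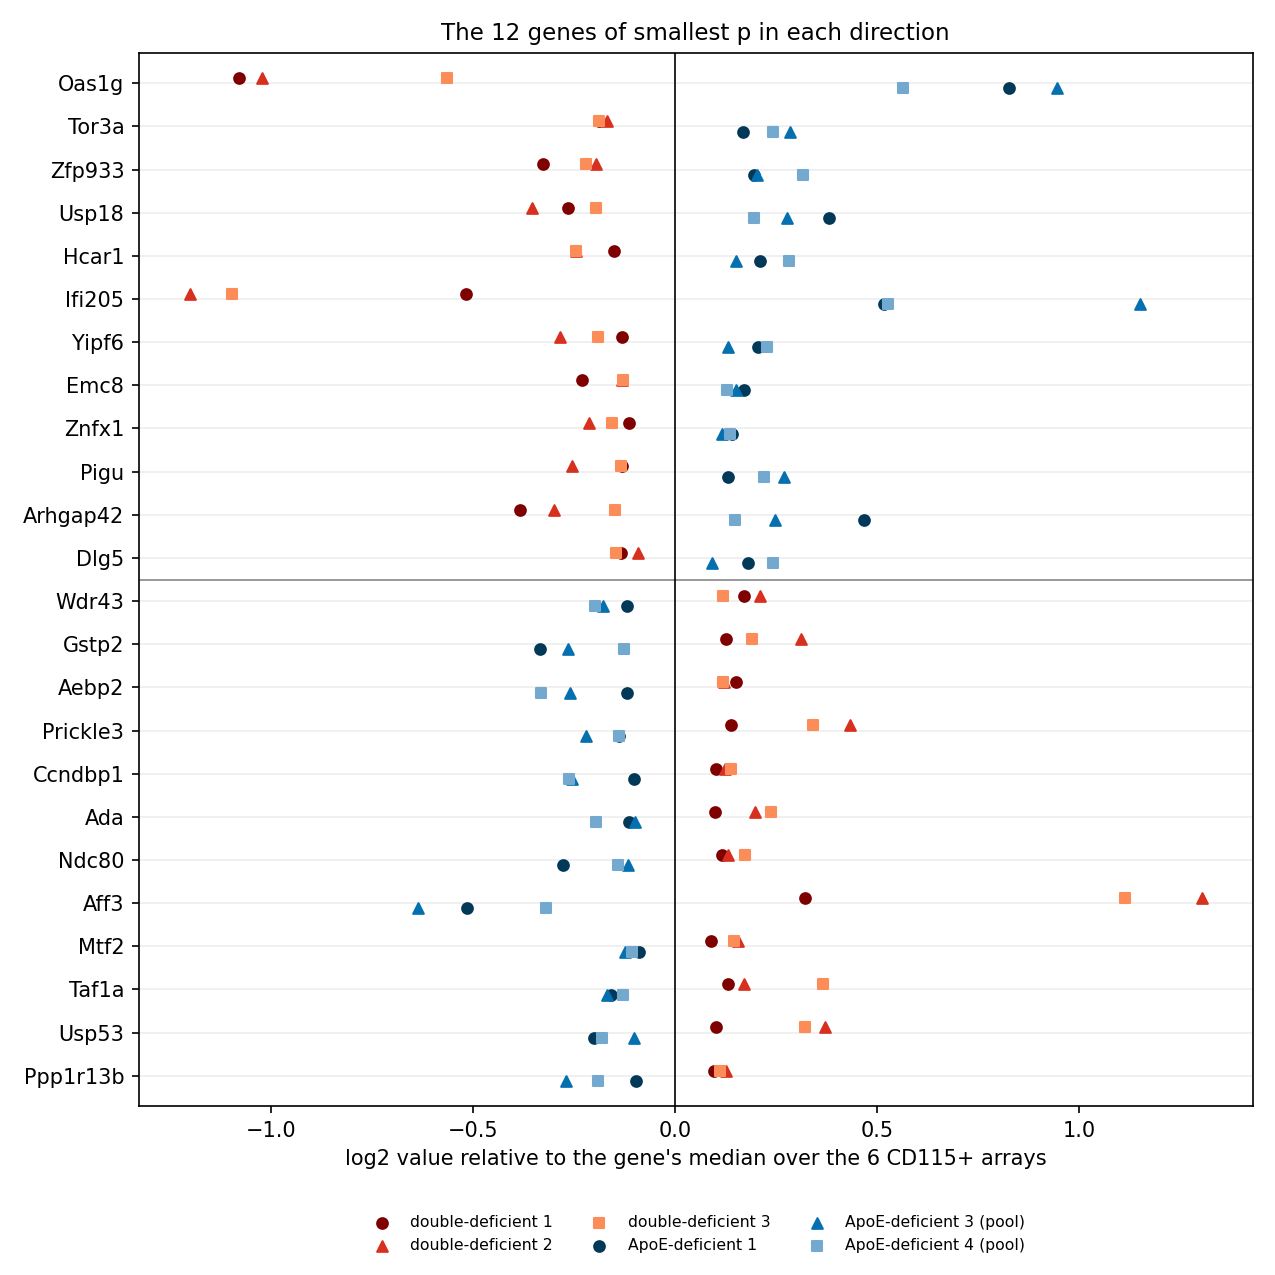
Centred log2 values (x axis) of the 12 genes of smallest limma p lower in double-deficient cells (above the line) and the 12 higher (below), 1 point per array. Oas1g and Ifi205 had the widest gaps, with differences of -1.67 and -1.67, and in all 24 genes the reds and blues did not overlap, which is how genes of small p look in 3 against 3 and not a separate result.

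The mean of the interferon-stimulated genes was lower in each double-deficient array than in any ApoE-deficient array. Of 28 measured genes 27 had a negative difference, beside 55.3% over all genes, and 10 did not overlap in the lower direction, beside 5.23%. The median difference was -0.31. A level of 8 or more was shown for 1 of the 28, Zbp1, whose groups overlapped, beside 8.92% over all genes. The list mean was -0.49, -0.11 and -0.11 against 0.14, 0.067 and 0.11. Double-deficient replicate 1 was by far the lowest array, and replicates 2 and 3 were still below every ApoE-deficient array. The exception in sign was Trim30a at 0.016, named here after its value was seen. Without double-deficient replicate 1, 23 of the 28 were negative, beside 57.3% over all genes, 11 were lower without overlap, beside 19.9%, and the median was -0.18. The Ly6C-high monocyte genes were also lowest by far in double-deficient replicate 1, with a list mean of -0.74, and their part in the interferon result was not tested.

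Rtp4, an interferon-induced chaperone for receptors, stood at -1.12, -0.27 and -0.49 against 0.32, 0.27 and 0.36, with a difference of -0.95 (SE 0.22). Oas2, another oligoadenylate synthetase, stood at -1.33, -0.81 and -0.24 against 0.26, 0.24 and 0.39, with -1.09 (SE 0.27). Dhx58, the RNA sensor LGP2, stood at -0.74, -0.39 and -0.10 against 0.16, 0.10 and 0.23, with -0.58 (SE 0.16). In all these genes double-deficient replicate 1 was the lowest array and no array overlapped the other genotype. Without that replicate the differences were -0.70, -0.82 and -0.41. Cxcl10, a chemokine for activated T cells, stood at -0.13, -0.13 and -0.24 against 0.63, 0.19 and 0.13, a difference of -0.48 (SE 0.14), and there double-deficient replicate 1 was no lower than replicate 2. Bst2, a protein that tethers budding viruses, stood at -0.50, -0.057 and -0.54 against 0.22, 0.057 and 0.11, and its double-deficient replicate 2 lay just below the lowest ApoE-deficient array. Irf7, the transcription factor that amplifies type I interferon production, stood at -0.65, -0.49 and -0.049 against 0.049, 0.093 and 0.11, a difference of -0.48 (SE 0.15).

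Within the oligoadenylate synthetase family the members differed unequally. Of 11 measured genes, 4 did not overlap in the lower direction, beside 5.23% over all genes: Oas1g, Oas2, Oas1b and Oasl2. Oas1b, which in many laboratory strains encodes a truncated protein, stood at -0.15, -0.34 and -0.13 against 0.62, 0.13 and 0.17, with -0.51 (SE 0.15), and Oasl2, a synthetase-like protein, at -0.68, -0.099 and -0.094 against 0.33, 0.29 and 0.094, with -0.53 (SE 0.18). Oasl1 and Oas3 were also lower on average (-0.24 (SE 0.12) and -0.41 (SE 0.21)), but their arrays overlapped. Oas1c, Oas1d, Oas1e, Oas1f and Oas1h had differences between -0.059 and 0.10, within about 1 SE of 0. Probe sets of such close relatives can take up each other's transcripts, so the family members are uncertain individually. The family median was -0.24, and -0.14 without double-deficient replicate 1. A level of 8 or more was shown for 0 of the 11 genes, beside 8.92% over all genes.

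The Ifi200 family, whose members bind DNA and in part build inflammasomes, showed Ifi205 alone apart by genotype. Of 10 genes, 5 were negative and 1 was lower without overlap, beside 55.3% and 5.23% over all genes. Ifi213, Ifi204, Ifi207 and Ifi209 differed by -0.30 (SE 0.15), -0.64 (SE 0.38), -0.23 (SE 0.20) and -0.25 (SE 0.50). Ifi209, Ifi204, Aim2 and Mndal were lowest in double-deficient replicate 1, at -1.51, -1.39, -0.86 and -0.83. Aim2, the cytosolic DNA sensor, and Mndal differed by 0.16 (SE 0.41) and 0.14 (SE 0.40), and without that array by 0.61 and 0.60. Ifi214, Ifi202b and Ifi208 differed by at most 0.032. The family median changed sign with that array, from -0.11 to 0.045 without it. In aorta 8 of the 10 were negative, with a median of -0.70, but Ifi205 there differed by -0.16.

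**Figure D3:**
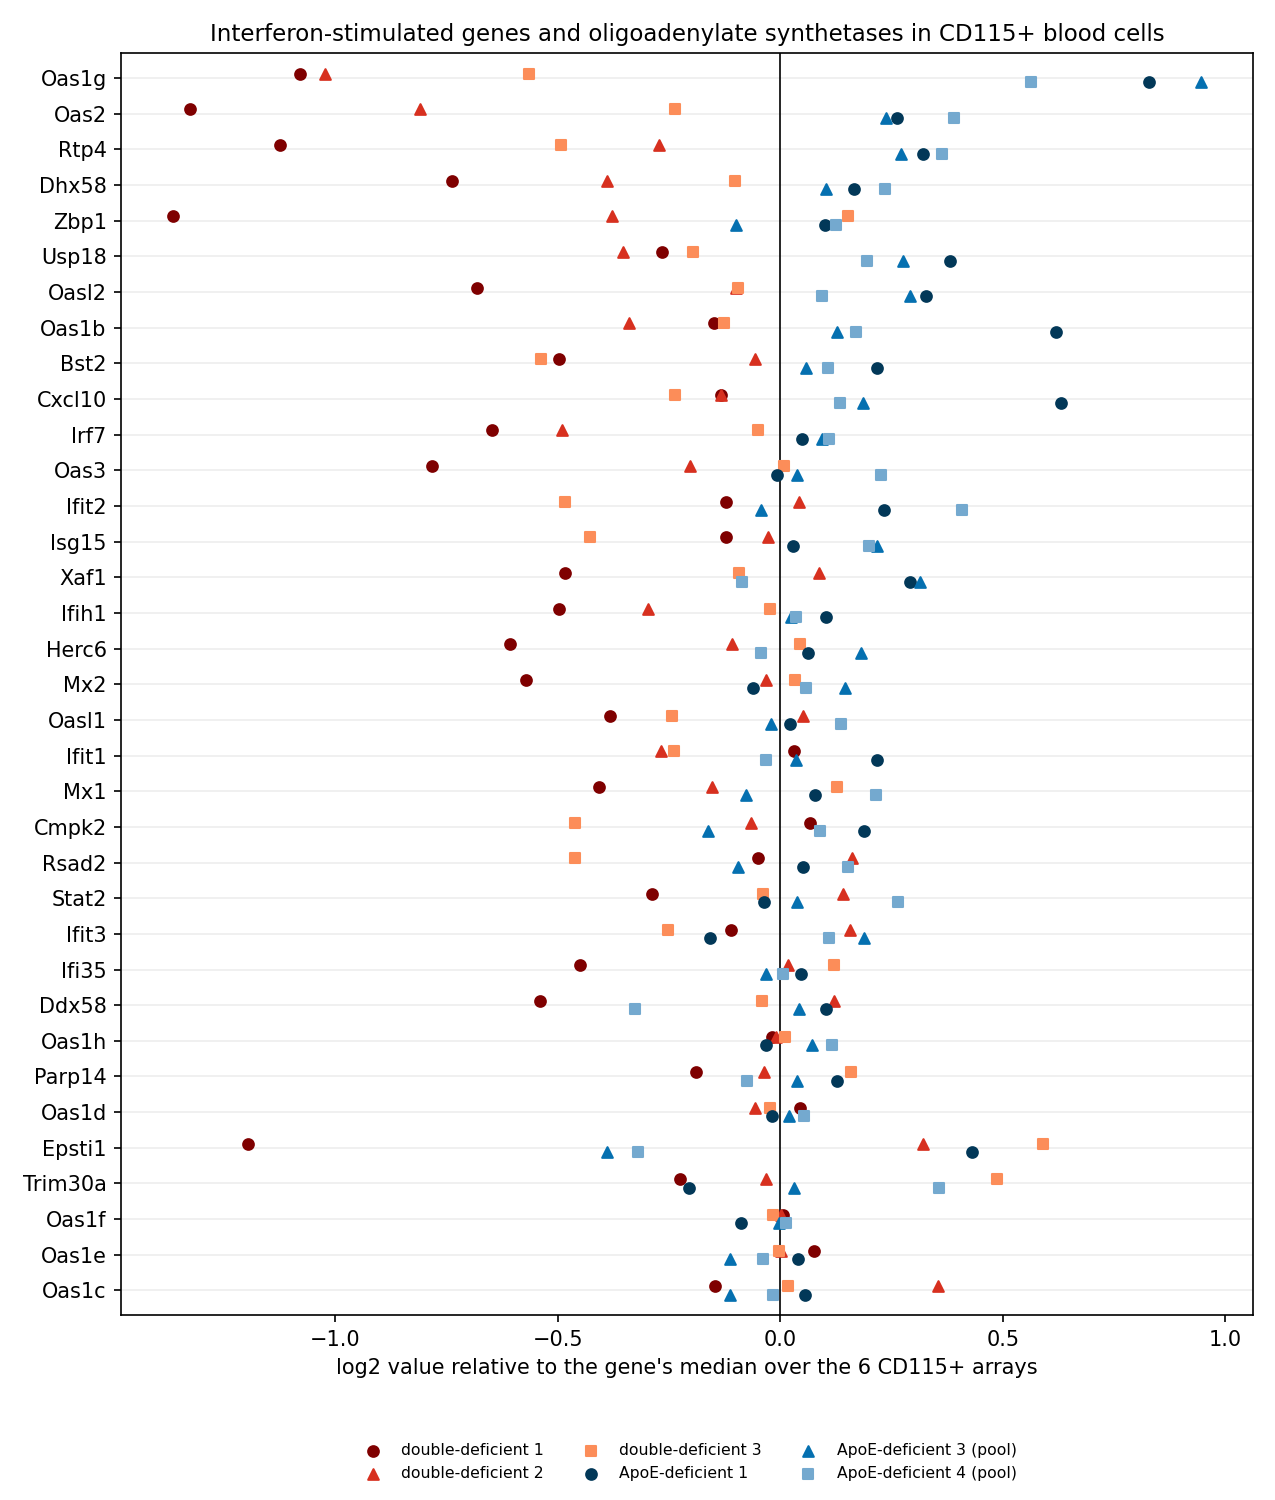
Centred log2 values (x axis) of the measured interferon-stimulated genes and oligoadenylate synthetases, ordered by their difference, 1 point per array. From Oas1g (-1.67) down to Irf7 (-0.48) the reds lie left of the blues, except that Zbp1 has double-deficient replicate 3 at 0.15 among the blues, and double-deficient replicate 1 is the leftmost point for Oas2, Rtp4, Dhx58 and Zbp1.

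The promoters of 4 of these genes are shown because they hold an interferon-stimulated response element upstream of the start site. Only named genes of the interferon-stimulated, oligoadenylate synthetase and Ifi200 lists were candidates. The 4 are those with an upstream match among candidates that were lower without overlap and are in the promoter table. Other named genes lower without overlap were not considered for printing. The element was searched on both strands as 2 copies of GAAA separated by 2 bases, in a 300-base window from 250 bases before to 50 after the start site in the RefSeq promoter table of GRCm38.p6. The 250 upstream bases are given 5′ to 3′ in the direction of the gene, with each match in capitals. Oas1g lies at chr5:120887614-120887863, Ifi205 at chr1:174031756-174032005, Bst2 at chr8:71537473-71537722 and Cxcl10 at chr5:92348890-92349139, all on the minus strand.
Oas1g: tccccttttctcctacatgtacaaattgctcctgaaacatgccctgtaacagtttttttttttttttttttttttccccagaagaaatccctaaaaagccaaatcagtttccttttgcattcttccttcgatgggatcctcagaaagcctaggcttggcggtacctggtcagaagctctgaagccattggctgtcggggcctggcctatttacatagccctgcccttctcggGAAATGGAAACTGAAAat
Ifi205: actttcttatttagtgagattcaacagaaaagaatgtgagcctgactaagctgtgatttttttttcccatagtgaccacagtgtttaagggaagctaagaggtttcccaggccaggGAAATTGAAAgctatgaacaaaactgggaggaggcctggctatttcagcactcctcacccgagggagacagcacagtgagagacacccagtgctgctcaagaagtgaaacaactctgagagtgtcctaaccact
Bst2: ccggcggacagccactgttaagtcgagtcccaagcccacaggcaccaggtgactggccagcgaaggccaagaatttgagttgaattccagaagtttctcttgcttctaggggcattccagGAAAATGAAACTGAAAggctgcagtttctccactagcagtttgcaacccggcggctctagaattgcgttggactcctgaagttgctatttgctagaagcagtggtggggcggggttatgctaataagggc
Cxcl10: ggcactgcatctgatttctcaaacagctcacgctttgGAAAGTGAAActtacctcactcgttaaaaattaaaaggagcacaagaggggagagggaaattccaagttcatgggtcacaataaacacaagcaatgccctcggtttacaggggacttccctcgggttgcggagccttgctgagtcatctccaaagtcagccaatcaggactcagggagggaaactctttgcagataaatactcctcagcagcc
The matches in Oas1g overlapped and began at positions -18 and -12 relative to the start site. Those in Bst2 overlapped too and began at -130 and -124, while the upstream match in Ifi205 began at -134 and that in Cxcl10 at -213, farther from the start. Ifi205 had another match in the window that did not lie wholly upstream of the start. Irf7 and Oasl2, also lower without overlap, had no match in the window, and Ifih1 had 1 that did not lie wholly upstream. Matches closer to the start than the upstream match in Ifi205 were found in Oas3 (-75), Ifi213 (-73), Ifi207 (-41) and others whose arrays overlapped between genotypes.

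The element was counted in the promoters of each list that was scanned. It stood in 3.87% of the 16990 measured genes in the promoter table (657), in 11 of 20 interferon-stimulated genes (55.0%), in 3 of 7 oligoadenylate synthetases (42.9%), in 6 of 9 Ifi200 genes (66.7%) and in 6 of 6 guanylate-binding proteins. It stood in 2 of 9 of the genes of smallest p that were lower (22.2%), which were Oas1g and Ifi205, and in 0 of 11 of those that were higher. Of the B cell markers 2 of 10 held it, and of the Ly6C-high monocyte genes 0 of 12. The gamma-activated site, searched as TTCNNNGAA, stood in 9.15% of measured genes, in 15.0% of the interferon-stimulated genes and in 4 of 6 guanylate-binding proteins. These are matches of letters and not shown binding sites. The element did not sort the families by their values, since the Ifi200 genes Ifi214, Ifi208 and Mndal held it and differed by 0.028, 0.032 and 0.14.

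Genes upstream of the interferon response did not share one direction. Among 17 nucleic acid sensors and adaptors 16 were negative, beside 55.3% over all genes, with a median of -0.21. Dhx58 and Ifih1 were the 2 lower without overlap, beside 5.23% over all genes. Dhx58, Ifih1, Ddx58 and Zbp1 are also on the interferon-stimulated list, so the lists are not separate. Ifih1, the RNA sensor MDA5, stood at -0.50, -0.30 and -0.024 against 0.10, 0.024 and 0.036, with -0.33 (SE 0.12). Zbp1, a sensor of Z-form nucleic acid, was low mainly in double-deficient replicate 1 (-1.37, -0.38 and 0.15 against 0.10, -0.10 and 0.13). Myd88, the adaptor of Toll-like receptors, differed by -0.31 (SE 0.16). Without double-deficient replicate 1 the median of the sensors was -0.072. Among 18 interferon receptors and signalling factors 6 were negative and the median was 0.094, or 0.15 without that array. Irf7, which is also on the interferon-stimulated list, was the single member lower without overlap. The kinases Jak1 and Jak2 and the lymphoid factor Irf4 were high in double-deficient replicates 2 and 3, with differences of 0.30 (SE 0.21), 0.49 (SE 0.27) and 0.49 (SE 0.32).

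Genes that respond mainly to interferon gamma were divided. Of 13 guanylate-binding proteins and immunity GTPases 9 were negative, with a median of -0.13, and 0 were lower without overlap. In the fit that left out double-deficient replicate 1 the median was -0.20, past that of the interferon-stimulated genes in the same fit (-0.18), with 10 of 13 negative and 5 lower without overlap, beside 19.9% over all genes. Gbp10 differed by -0.35 (SE 0.13), Gbp3 by -0.45 (SE 0.26), Irgm1 by -0.24 (SE 0.15) and Gbp4 by 0.35 (SE 0.21). Of 14 MHC class I and peptide-loading genes 7 were negative and 0 were apart, with a median of -0.0060, or 0.019 without that array. Nlrc5, the transactivator of class I genes, differed by 0.25 (SE 0.13), H2-Q4 by 0.19 (SE 0.13), Erap1, which trims peptides for class I, by -0.12 (SE 0.085) and Tapbp, which loads them, by -0.15 (SE 0.13).

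Ly6C-high monocyte genes leaned lower in double-deficient cells, most of all in replicate 1. Of 15 genes 13 were negative, beside 55.3% over all genes, and 4 did not overlap in the lower direction, beside 5.23%, with a median of -0.29. Ly6c2, the surface antigen that defines the class, stood at -2.08, -0.42 and -0.15 against 0.53, 0.15 and 0.56, a difference of -1.30 (SE 0.51). Chil3, a chitinase-like secreted protein, stood at -1.50, -0.053 and -0.32 against 0.95, 0.053 and 0.94, with -1.27 (SE 0.44). Both were very low in double-deficient replicate 1, and replicates 2 and 3 also lay below the lowest ApoE-deficient array. Without double-deficient replicate 1 the differences were -0.70 for Ly6c2 and -0.83 for Chil3. Vcan, the proteoglycan versican, stood at -0.12, -0.45 and -0.12 against 0.41, 0.12 and 1.46, with -0.89 (SE 0.35), and there ApoE-deficient replicate 4, a pool, was the array apart. F13a1, coagulation factor XIII subunit A, stood at -0.55, -0.098 and -0.023 against 0.16, 0.023 and 0.47, with -0.44 (SE 0.18). Ccr2, the receptor that brings these monocytes out of the bone marrow, stood at -0.78, -0.092 and 0.063 against 0.33, -0.063 and 0.44, with -0.50 (SE 0.25) and overlapping groups. The list mean was -0.74, -0.013 and 0.041 against 0.23, -0.063 and 0.32, and without double-deficient replicate 1 the median was -0.21.

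Ly6C-low monocyte genes were set by another array, double-deficient replicate 3. Their list mean was -0.29, -0.22 and 0.73 against 0.24, -0.081 and 0.0011, so that this array stood above the other 5 and double-deficient replicates 1 and 2 were lowest. Nr4a1, the nuclear receptor this class needs, stood at -0.34, 0.22 and 1.18 against 0.36, -0.49 and -0.22, with 0.47 (SE 0.42). Cx3cr1, the fractalkine receptor, stood at -0.80, -0.30 and 0.48 against 0.32, 0.046 and -0.046, with -0.32 (SE 0.32). Pecam1 and Cd36, which endothelial cells also express, differed by 0.20 (SE 0.091) and -0.11 (SE 0.11). Of 16 genes 8 were negative, none was apart, and the median was 0.0049, or 0.24 without double-deficient replicate 1.

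The receptor used for selection varied as much within a genotype as between them. Csf1r stood at -0.62, -0.14 and 1.29 against 0.36, -0.0011 and 0.0011, a difference of 0.054 (SE 0.49), with double-deficient replicates 1 and 3 at the ends. Of 16 genes of its axis 8 were negative and the median was -0.022, or 0.15 without double-deficient replicate 1. Fcgr1, the high-affinity IgG receptor of classical monocytes and itself inducible by interferon, was the member lower without overlap, at -1.24, -1.05 and -0.054 against 0.39, 0.054 and 0.44, with -1.07 (SE 0.32). Its low values were in double-deficient replicates 1 and 2, while replicate 3 lay just below ApoE-deficient replicate 3. Klf2, a transcription factor of quiescence, and Csf1, the ligand, differed by 0.38 (SE 0.19) and 0.23 (SE 0.12). Lyz2, the myeloid lysozyme, hardly varied, at -0.048, -0.13 and 0.055 against 0.090, -0.060 and 0.048.

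Effector genes of monocytes and macrophages gave few members that were apart. Among 12 Fc gamma receptor and C1q genes 10 were negative, with a median of -0.17, or -0.23 without double-deficient replicate 1. C1qa, a chain of complement C1q, differed by -0.24 (SE 0.13), Cfp, which encodes properdin, by -0.23 (SE 0.15), and Fcgr2b, the inhibitory Fc receptor, by -0.30 (SE 0.21). Among 11 Toll-like receptor genes the median was -0.0057, or 0.098 without that array. Tirap, an adaptor of these receptors, was higher without overlap, at 0.0048, 0.067 and 0.082 against -0.20, -0.0048 and -0.12, while Cd14, Ly96 and Irak3 differed by 0.33 (SE 0.30), -0.22 (SE 0.24) and 0.26 (SE 0.29). Among 9 NADPH oxidase and oxidant genes 7 were negative with a median of -0.079, which turned to 0.20 without double-deficient replicate 1. Hmox1, the haem oxygenase, differed by -0.31 (SE 0.31) and Ncf1, an oxidase subunit, by 0.24 (SE 0.30). Nos2, the inducible nitric oxide synthase, and Sod2, the mitochondrial superoxide dismutase, differed by -0.077 (SE 0.072) and -0.12 (SE 0.15).

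Tissue macrophage markers were lower, together with the vessel wall and fat genes in the same arrays. Of 13 genes 12 were negative, beside 55.3% over all genes, and 4 were lower without overlap, beside 5.23%, with a median of -0.23. The median was -0.39 without double-deficient replicate 1, and then 11 of 13 were lower without overlap, beside 19.9% over all genes. Siglec1, a sialic acid receptor that interferon induces, stood at -0.17, -0.041 and -0.26 against 0.47, 0.22 and 0.041, with -0.40 (SE 0.12). Timd4, a receptor for dying cells, stood at -0.020, -0.10 and -0.16 against 0.14, 0.020 and 0.19, with -0.21 (SE 0.067). Mertk, an efferocytosis kinase, differed by -0.36 (SE 0.15). F13a1, given above, is also on this list. Siglec1 and Timd4 did not overlap between genotypes, while Mertk was low in double-deficient replicates 2 and 3 only. The list mean was 0.074, -0.25 and -0.17 against 0.058, 0.19 and 0.095, and the median was -0.082 with the vessel wall and fat mean as a covariate, an alternative added after the values were seen. The part of those cells in the result was not tested.

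Genes of lipid uptake and cholesterol handling were of interest because of the diet and the lack of ApoE. Of 15 scavenger receptor and lipid genes 12 were negative, with a median of -0.20, or -0.20 without double-deficient replicate 1. Msr1, the class A scavenger receptor of foam cells, stood at -0.38, -0.079 and -0.18 against 0.079, 0.16 and 0.48, with -0.45 (SE 0.13), and all double-deficient arrays were below all others. Olr1, the receptor LOX-1 for oxidised LDL, stood at 0.034, 0.41 and 1.01 against -0.11, -0.14 and -0.034, with 0.58 (SE 0.24), higher without overlap and highest in double-deficient replicate 3. Lipa, the lysosomal acid lipase, and Trem2, a lipid receptor of foam cells, differed by -0.20 (SE 0.12) and -0.31 (SE 0.19) with overlap.

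Of 11 LXR target and cholesterol efflux genes 3 were lower without overlap and 1 higher, beside 5.23% and 3.93% over all genes. The median was -0.065, or -0.059 without double-deficient replicate 1. Npc2, which carries cholesterol out of lysosomes, stood at -0.20, -0.26 and -0.068 against 0.25, 0.086 and 0.068, with -0.31 (SE 0.078). Apoc1 and Apoe, neighbours in one apolipoprotein cluster, differed by -0.34 (SE 0.10) and -0.20 (SE 0.071). All mice lacked ApoE, so the Apoe probe set reads whatever transcript the mutant gene leaves. Abca1, the efflux pump, differed by 0.093 (SE 0.059), higher without overlap. Of 12 cholesterol synthesis genes 11 were negative with a median of -0.17. Their median was -0.27 without double-deficient replicate 1, and then 10 of 12 were lower without overlap, beside 19.9% over all genes. Sqle, the squalene epoxidase, stood at -0.12, -0.032 and -0.12 against 0.032, 0.22 and 0.068 and was the member apart with all 6 arrays, while Sc5d, Lss and Nsdhl differed by -0.33 (SE 0.18), -0.22 (SE 0.13) and -0.22 (SE 0.18). Their low arrays were double-deficient replicates 2 and 3. The list mean was 0.16, -0.17 and -0.21 against -0.0041, 0.12 and 0.087. It was likewise highest in double-deficient replicate 1 and lowest in replicates 2 and 3, as for the vessel wall and fat genes. With the vessel wall and fat mean as a covariate the median was -0.029, and the part of those cells was not tested.

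The NF-kB pathways downstream of the receptor did not show lower values. Of 10 non-canonical NF-kB genes 2 were negative, with a median of 0.15, or 0.28 without double-deficient replicate 1. Birc3 and Birc2, ubiquitin ligases of the pathway, differed by 0.46 (SE 0.39) and 0.21 (SE 0.14), and Tnfrsf13c, the BAFF receptor of B cells, by 0.31 (SE 0.23). Tnfsf13b, the ligand BAFF, which monocytes make, differed by -0.14 (SE 0.11). Of 20 canonical NF-kB and cytokine genes 3 were negative, with a median of 0.22, or 0.30 without that array. Tnfaip3, the feedback inhibitor A20, stood at -0.0042, 0.85 and 1.09 against -0.092, 0.0042 and -0.081, with 0.70 (SE 0.28), high in double-deficient replicates 2 and 3 only. Cxcl2, a neutrophil chemokine, stood at -0.083, 1.02 and 0.56 against -0.72, -0.71 and 0.083, with 0.95 (SE 0.35). Rel, an NF-kB subunit abundant in lymphocytes, and Nfkbie, an inhibitor, differed by 0.75 (SE 0.40) and 0.22 (SE 0.11). The list mean was -0.23, 0.61 and 0.42 against 0.080, -0.22 and -0.083, so double-deficient replicates 2 and 3, the arrays with high B cell markers, were the high ones. With the mean of the B cell markers as a covariate, an alternative added after the values were seen, the medians were -0.12 and -0.071. The part of B cells in these lists was not tested.

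Immediate early genes, which cells transcribe within minutes of a stimulus, were on the positive side throughout. All 16 had a positive difference, with a median of 0.31, beside 55.3% negative over all genes. Without overlap 1 was higher, beside 3.93% over all genes. Leaving out double-deficient replicate 1 gave a median of 0.52. Egr1 stood at 0.060, 0.25 and 0.028 against -0.37, -0.80 and -0.028, with 0.51 (SE 0.20), and its low arrays were ApoE-deficient replicates 1 and 3. Jun differed by 0.37 (SE 0.15), Ier2 by 0.52 (SE 0.32) and Egr3, which was high in double-deficient replicate 2 only, by 0.52 (SE 0.32). The list mean was -0.29, 0.47 and 0.43 against 0.093, -0.27 and -0.17, again highest in double-deficient replicates 2 and 3. The median was 0.059 with the vessel wall and fat mean and -0.19 with the B cell mean as a covariate. The part of these other cells was not tested.

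B cell genes had the largest median of the lists described here, and they also differed widely within each genotype. All 14 were positive with a median of 1.41, but 2 were higher without overlap, beside 3.93% over all genes. Blk, a kinase of the B cell receptor, stood at 0.089, 1.75 and 1.43 against -0.089, -0.22 and -0.75, with 1.44 (SE 0.46). Bank1 and Fcer2a, a scaffold and the IgE receptor CD23 of B cells, stood at -0.30, 2.34 and 1.53 against 0.30, -1.44 and -1.05 and -0.25, 2.56 and 1.56 against 0.25, -0.65 and -0.73, with 1.92 (SE 0.78) and 1.67 (SE 0.73). In both genes double-deficient replicate 1 lay below ApoE-deficient replicate 1. Ebf1, the B lineage factor, differed by 0.39 (SE 0.16). Without double-deficient replicate 1 the median was 1.99.

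MHC class II genes, which B cells and monocytes both express, followed the same arrays. Of 10 genes 1 was negative, Ctss at -0.11, and the median was 0.58. The list median was 0.91 without double-deficient replicate 1, and then none was negative. H2-Ab1 stood at 0.00055, 0.50 and 0.28 against -0.00055, -0.13 and -0.24, with 0.38 (SE 0.14), the member apart with all 6 arrays. H2-DMb2 and H2-Ob, peptide-loading genes of which H2-Ob is restricted mainly to B cells, stood at -0.18, 1.88 and 1.08 against 0.18, -1.03 and -0.61 and -0.15, 2.23 and 1.09 against 0.15, -0.44 and -0.40. H2-DMb1 differed by 0.68 (SE 0.30). With the B cell mean as a covariate the list median was -0.088. Over 6 arrays that mean and genotype cannot be told apart, and the part of B cells was not tested.

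T cell genes were higher on average too. All 13 were positive, 3 without overlap, beside 3.93% over all genes, and the median was 0.34, or 0.32 without double-deficient replicate 1. Cd3g, which signals for the T cell receptor, stood at 0.023, 1.16 and 0.62 against -0.023, -0.13 and -0.49, with 0.82 (SE 0.30), Lat, its adaptor, at 0.0036, 0.75 and 0.46 against -0.0036, -0.50 and -0.25, with 0.65 (SE 0.22), and Cd3d differed by 0.58 (SE 0.24). Double-deficient replicate 2 was the highest array for these genes, and double-deficient replicate 1 lay just above the highest ApoE-deficient array. Cd8b1 and the defining marker Cd3e differed by 0.25 (SE 0.10) and 0.37 (SE 0.21) with overlap.

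The remaining blood cell lists had smaller medians than the B and T cell lists with all 6 arrays. They were 0.041 for NK cells, 0.080 for neutrophils, 0.17 for platelets, 0.037 for erythroid cells, 0.098 for dendritic cells, 0.038 for basophils and eosinophils and 0.019 for plasma cells. In the fit without double-deficient replicate 1 they were, in the same order, 0.073, 0.30, 0.49, -0.016, 0.16, 0.064 and -0.040, so the neutrophil and platelet medians moved most. Prtn3, a granule protease of immature myeloid cells, stood at -0.22, -0.29 and -0.040 against 0.33, 0.040 and 0.70, with -0.54 (SE 0.17), lower without overlap. Retnlg and S100a8 of mature neutrophils differed by 1.09 (SE 0.79) and 0.41 (SE 0.72). Prdm1, the factor BLIMP-1 of plasma cells and some myeloid cells, stood at -0.18, -0.050 and -0.30 against 0.23, 0.17 and 0.050, with -0.32 (SE 0.084), all double-deficient arrays below all others. Tubb1 of platelets ran from -1.08 to 2.30 within the double-deficient group alone.

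Chemokine, adhesion and housekeeping lists had few genes apart with all 6 arrays, and several moved without double-deficient replicate 1. Of 21 chemokine genes 8 were negative (median 0.027, or 0.066 without that array), with Cxcl10 lower and Ccr7, the lymph node homing receptor, at -0.044, 1.53 and 0.87 against 0.044, -0.89 and -0.86, highest in double-deficient replicates 2 and 3. The chemokine Ccl12 differed by -0.20 (SE 0.089). Of 12 adhesion genes the median was 0.14, or 0.44 without that array, and Icam2, Itgb1 and F11r differed by 0.40 (SE 0.17), 0.15 (SE 0.086) and -0.20 (SE 0.18). Of 19 oxidative phosphorylation genes 17 were negative, beside 55.3% over all genes, with 0 apart and a median of -0.074. When double-deficient replicate 1 was left out, all 19 were negative, 12 were lower without overlap, beside 19.9% over all genes, and the median was -0.16. Glycolysis genes had a median of -0.090, or -0.21 without that array. Of 18 ribosomal protein genes 14 were positive with 0 apart and a median of 0.073, and without that array 16 were positive and the median was 0.21. Proliferation genes had a median of -0.021, or -0.037 without that array, with Top2a and Birc5 at -0.22 (SE 0.088) and -0.14 (SE 0.074) and the replication factor Mcm3 at 0.35 (SE 0.15). Heat shock and unfolded protein genes had a median of -0.020, or -0.052 without that array.

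**Figure D4:**
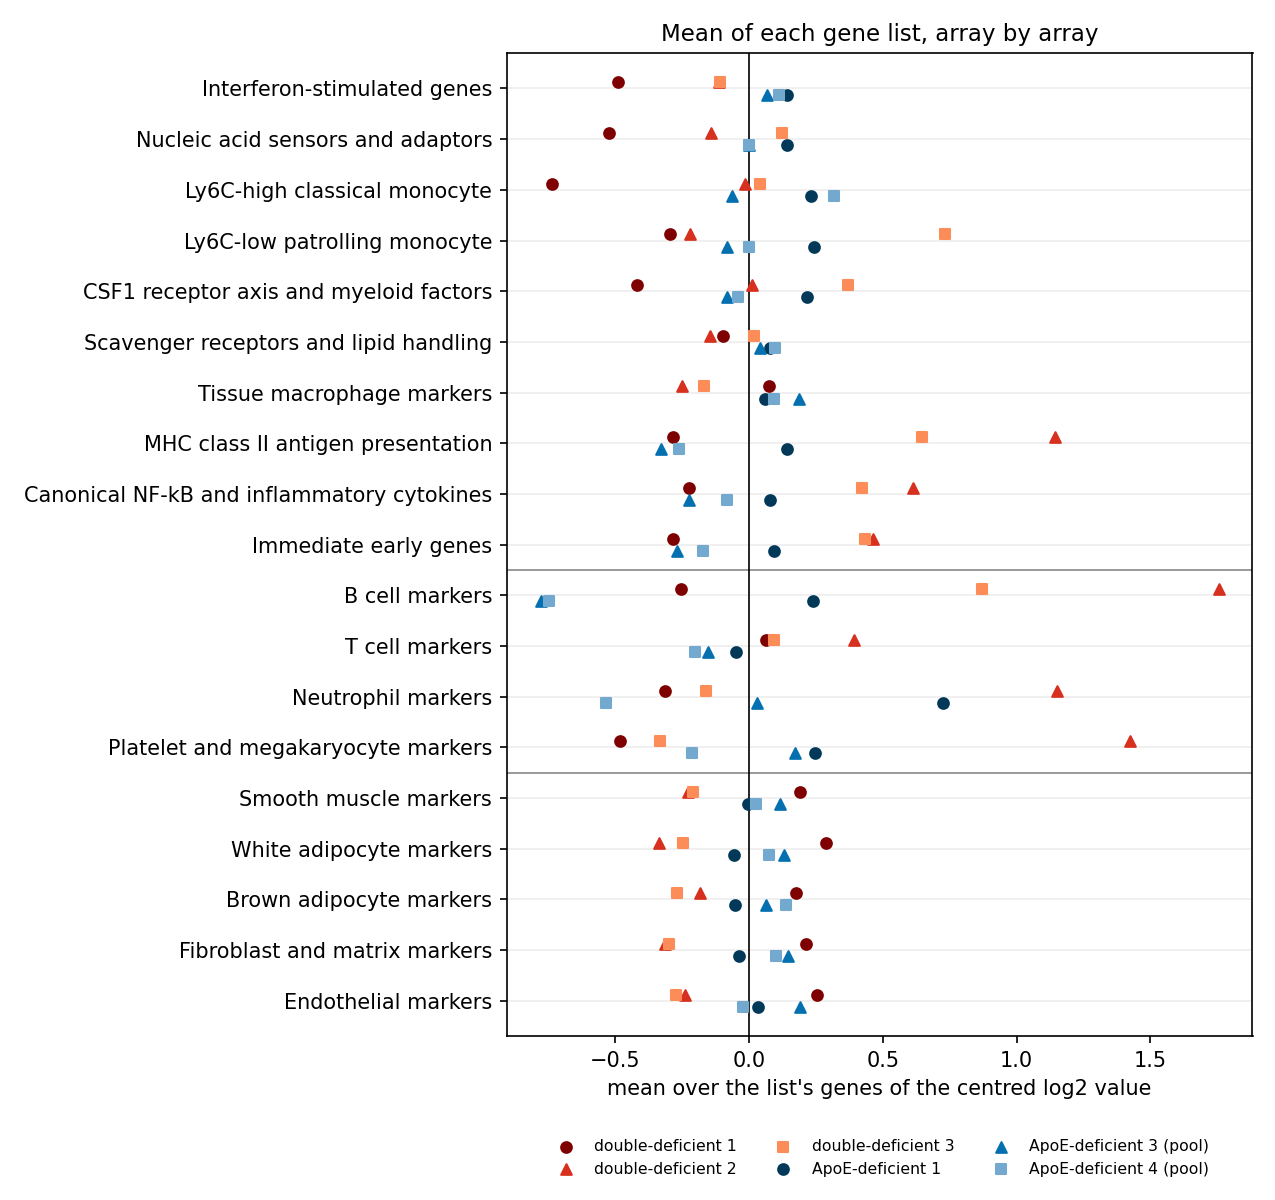
Mean of the centred log2 values over each gene list (x axis), 1 point per array, with monocyte and response lists above the first line, other blood cells between the lines and vessel wall and fat lists below. The interferon list separates the genotypes, with double-deficient replicate 1 at -0.49; the B cell list spreads from -0.78 to 1.75, and the vessel wall and fat lists have double-deficient replicate 1 on the right and replicates 2 and 3 on the left.

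The interferon result was set beside the lists that varied between arrays. Its list mean was lowest in double-deficient replicate 1, as was that of the Ly6C-high monocyte genes, while the B cell mean was highest in double-deficient replicate 2 and the vessel wall and fat lists were highest in double-deficient replicate 1. With the vessel wall and fat mean as a covariate the median of the interferon-stimulated genes was -0.41, and with the B cell mean -0.47, against -0.31 without either. The median of the Ly6C-high monocyte genes moved the same way, from -0.29 to -0.60 and -0.64. Under these covariates Oas1g differed by -1.74 and -1.73, Ifi205 by -1.44 and -1.25, and Usp18 by -0.56 and -0.56. Aff3 went from 1.40 to 1.13 and 0.95. Limma called 0 genes in either fit. Both covariates were means over the same arrays and were added after the values were seen. With so few arrays these fits cannot separate signal of other cells from genotype. The part of other cells in the interferon result was not tested. Without the pools, which leaves ApoE-deficient replicate 1 as the lone control and assumes that it varies like the other group, the median of the interferon-stimulated genes was -0.36, and that of the B cell markers 0.54.

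Leaving out double-deficient replicate 1 brought other genes to the front, named by the same order of p after their values were seen. The higher genes of smallest p were then Bach2, a repressor of B and T cells, at 1.93, Tspan32 at 1.32 and Wdfy4 at 1.23, and Aff3 followed at 1.70. The lower genes of smallest p were Rmdn3 at -0.71, Tmlhe at -0.55 and Tmtc1 at -0.53. Matrix and vessel genes were among those that followed: Col6a2 at -0.58, Nid1 at -0.64, Col1a1 at -0.55, Cspg4, a pericyte proteoglycan, at -0.69 and Cav2, a caveolin, at -0.61. Abcd3, Agmo, Pla2g2e and Ces1f stood among them in that order. None passed the adjusted threshold. In double-deficient replicate 1 itself Nid1 stood at 0.23 and Cav2 at 0.24, opposite in sign to replicates 2 and 3. Col6a2, Col1a1 and Cspg4 stood there at -0.0087, 0.022 and 0.075.

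The genotype difference in CD115+ cells was compared with that in aorta in a single fit of all 14 arrays. Limma called 0 of 22180 genes for a difference between the tissues (0.0%). The genes of smallest p in each direction were chosen by rule. Ly6d, a marker of B cells, differed by 1.51 in CD115+ cells and -3.54 in aorta, a gap of 5.05 (SE 0.82, limma adjusted p 0.222). Trp53inp1, a p53-induced gene, differed by 0.72 and -1.23, and Cd8a, the coreceptor of cytotoxic T cells, by 0.41 and -1.86. In the other direction Nbea differed by -0.071 and 0.69, Zfhx4 by -0.36 and 0.56, and Lgals4 by 0.12 and 1.17.

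This count rested on single arrays. Without CD115+ double-deficient replicate 1 the genotype difference was called lower in CD115+ cells than in aorta for 16 genes and higher for 42. Without aorta ApoE-deficient replicate 3 the fit called 2 and 28, and without aorta double-deficient replicate 2 it called 1 and 0. Zfp280d and Angptl1 of the 42, and Zfhx4, Nbea and Oplah of the 16, were among those of smallest limma adjusted p. The 42 also included Ly6d, Blk, Bach2, Mef2c, H2-DMb2 and Cd8a, and the 16 included Cidec of fat droplets, Epas1 and Lama4. All were named after their values were seen. Few list members were called: 2 B cell markers, 1 T cell marker, 1 MHC class II gene, 1 white adipocyte marker, and 0 smooth muscle, fibroblast or endothelial markers. B cell markers had medians of 1.41 in CD115+ cells and -1.70 in aorta, T cell markers 0.34 and -1.24, MHC class II genes 0.58 and -0.75, and interferon-stimulated genes -0.31 and -0.14. Lymphoid lists thus pointed in opposite directions and the interferon list in the same direction in these samples, without a test of either list. In aorta 21 of the 28 interferon-stimulated genes were negative, and 10462 of all 22180 genes. Of the genes named above, Oas1g differed there by -0.60, Usp18 by -0.63, Irf7 by -0.65 and Rtp4 by -0.54. All of these lay further below 0 than the list median of -0.14.

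**Figure D5:**
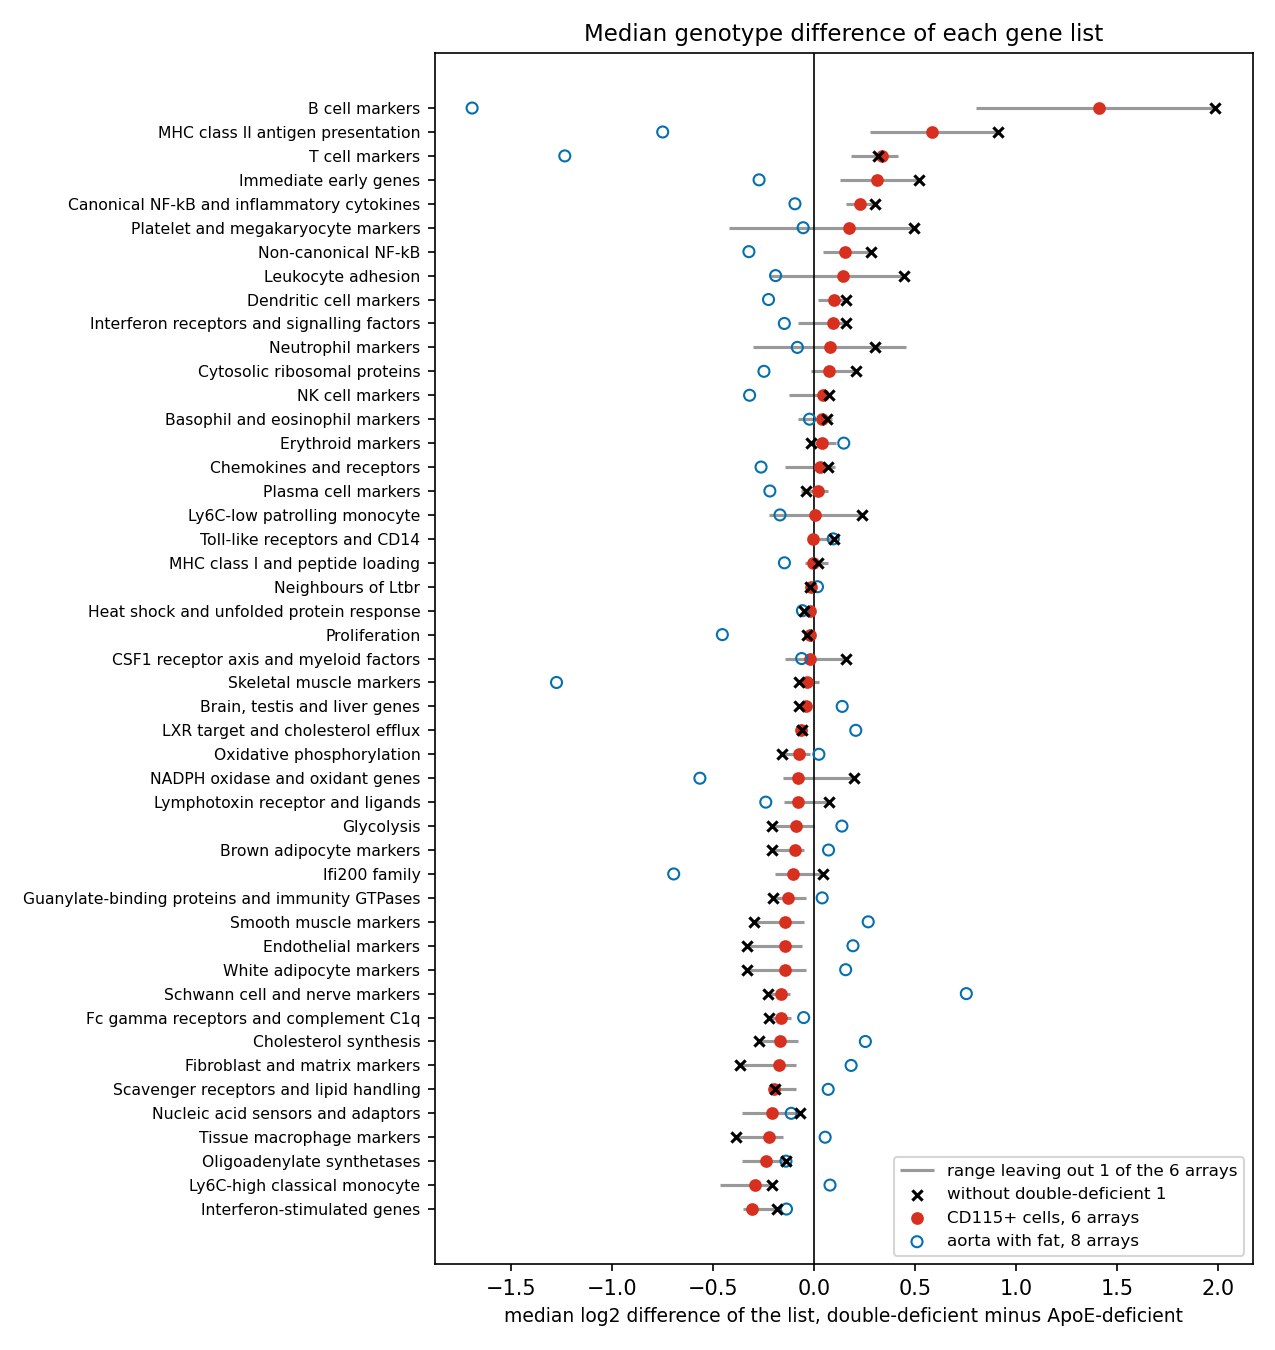
Median log2 difference of each list (x axis), double-deficient minus ApoE-deficient, in CD115+ cells (filled) and aorta (open circles), with the range over fits that leave out 1 of the 6 CD115+ arrays (grey line) and the fit without double-deficient replicate 1 (cross). The interferon-stimulated genes stay between -0.35 and -0.18, the B cell markers between 0.80 and 1.99, and the platelet and neutrophil lists cross 0.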

How the data were processed

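The 6 CD115+ arrays (3 per genotype) of a table of 14 arrays were used, with groups from titles and genotype labels. The authors deposited log values for 33793 probe sets, read here as log2. Neither the log base nor the array normalization is given in the sources used here. In all 33793 probe sets the median over the CD115+ arrays was 0, so levels are lost apart from the bound described below. Array medians ran from -0.00766 to 0.00396. Background signal was not used here, and the number of arrays limits the precision.

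The platform annotation gave 23521 probe sets 1 gene symbol, 1814 several and 8458 none; the first were averaged to 22180 genes, and in 461 genes the probe sets disagreed in sign. Genes were tested with limma 3.58.1 in R 4.3.3 (lmFit, eBayes, Benjamini-Hochberg, threshold 0.05), tested on simulated data. A level of 8 or more was read where at least 5 arrays had usable values and all were multiples of 2 to the power -20, within 0.1 steps; it can be false for single genes. Lists (38, and 8 added after seeing values, 98 of 105 listed genes measured) are described by counts and medians. The members and lists were chosen with earlier results of these data known. Genes named were Ltbr, 12 per direction by p, up to 4 per list by p, the oligoadenylate synthetases and Ifi200 genes in full, and 3 per sign for the difference between tissues. The exceptions were unnamed gene models, small RNAs, pseudogenes, and olfactory, vomeronasal, taste and antigen receptor genes. The defining cell type markers and genes said to be chosen after their values were seen were named too. Of the 22180 genes 16990 had a RefSeq promoter (GRCm38.p6). The labels do not call all preparations separate animals, so p-values measure the spread between these samples. Alternatives were robust and weighted fits, other probe set and array scalings, all 14 arrays, genes of level 8 or more, a replicate block, leaving out arrays or pools, and list means as covariates.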

Additional observations from a re-analysis of the deposited data

How the results depend on the processing

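In each of the 17 alternatives limma called 0 genes in CD115+ cells in either direction. The number of genes at an unadjusted p under 0.05 did depend on the setting, from 517 lower and 457 higher in the fit reported. Array weights gave 1060 lower and 1029 higher, all 14 arrays with a shared spread 174 and 292, and genes of level 8 or more 33 and 22, out of 1979 genes tested. Leaving out 1 array at a time gave between 337 and 1972 lower and between 292 and 1612 higher, with the highest counts without double-deficient replicate 1. Leaving out the pooled preparations gave 154 higher. A block for the shared replicate numbers 1 and 3 gave 158 lower and 104 higher. Same-numbered samples deviated from their group means in opposite directions (correlations -0.469 and -0.292). So few pairs cannot tell whether the numbers pair the samples. For the difference between tissues, leaving out 1 of the 14 arrays gave between 0 and 16 genes lower and between 0 and 42 higher. Ltbr and the 24 genes of smallest p kept their direction in all alternatives (403 values) and did not pass the threshold in any. Their groups did not overlap, so leaving out arrays could not turn the direction, and those values are not separate support. Of the list medians, 60 of 787 moved by more than the spread between replicates. The causes were not tested. With no levels beyond the coarse bound, a weak gene cannot be told from background. Small differences were not detectable with 3 arrays per group.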

Other observations

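Of the 62 vessel wall and fat genes 61 had a negative difference, beside 55.3% of all genes, and none of them was apart by genotype with all 6 arrays. Double-deficient replicate 1 had the highest mean of each of these lists. The medians were -0.15 for smooth muscle, -0.15 for white adipocytes, -0.093 for brown adipocytes, -0.18 for fibroblasts and matrix and -0.15 for endothelium. Without double-deficient replicate 1 they were -0.30, -0.33, -0.21, -0.37 and -0.33. Ucp1, the uncoupling protein of brown fat, stood at 0.14, -0.15 and -0.20 against -0.052, 0.052 and 0.10, and Col3a1, a collagen chain, at 0.20, -0.34 and -0.55 against -0.12, 0.23 and 0.12. Cidec and Plin1, which coat fat droplets, stood at 0.31, -0.47 and -0.46 against -0.080, 0.10 and 0.080 and 0.29, -0.40 and -0.39 against -0.070, 0.25 and 0.070. Cdh5, the junction protein of endothelium, stood at 0.042, -0.32 and -0.65 against -0.042, 0.22 and 0.069. In all 5 genes double-deficient replicates 2 and 3 were the lowest arrays.

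Genes of other tissues around the aorta were counted in the same way. The 10 skeletal muscle genes had a median of -0.035 with 6 negative, and in aorta -1.28. Of the 7 Schwann cell and nerve genes 6 were negative (median -0.17), and S100b stood at 0.14, -0.24 and -0.32 against -0.029, 0.23 and 0.029, lowest in double-deficient replicates 2 and 3. The 19 brain, testis and liver genes had a median of -0.041. Apoa1 and Alb, liver genes of plasma proteins, differed by -0.31 (SE 0.074) and -0.32 (SE 0.11) without overlap. Both had their lowest arrays in double-deficient replicates 2 and 3.

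Among the neighbours of Ltbr, C1rl differed by -0.36 (SE 0.082) and Spsb2 by -0.19 (SE 0.077), both lower without overlap, and Pianp and Vamp1 by 0.17 (SE 0.050) and 0.17 (SE 0.068), both higher without overlap. These 4 genes were taken by smallest p.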
